A study of Mus musculus with 9 samples.

Results

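CpG methylation was compared between plasma cells induced with the bacterial lipopolysaccharide LPS and naive B cells, the ends of the course that the series follows. The comparison used 6 of the 9 libraries, 3 of each cell type, and every CpG with at least 10 reads in all 6 of them. This gave 398790 of the 911004 deposited CpGs, 43.8% of the table. The naive B cells were B220+ CD43- spleen cells of untreated mice, and the plasma cells were B220low CD138+ spleen cells taken on day 3 of LPS. Both came from female C57Bl/6J mice aged 10 weeks. The other 3 libraries are plasmablasts (B220mid CD138+) of the same day, which enter below only where they are named. LPS exposure and cell identity go together in this design and cannot be told apart.

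DNA methylation in mammals sits mainly on the cytosine of CG dinucleotides, called CpGs. Dnmt1, brought by Uhrf1 to sites methylated on the old strand alone, copies the mark to new strands when DNA is replicated, so it can be diluted by division where copying is incomplete, and Tet enzymes can oxidise it. B cells that become plasma cells divide, silence the B cell program held by Pax5 and switch on the antibody secretion program held by Irf4, Prdm1 (Blimp-1) and Xbp1. Reduced representation bisulfite sequencing reads the mark at fragments cut by MspI, which are rich in CpGs. A level is the share of reads with a methylated cytosine in a pool of cells, so an intermediate level cannot tell fewer methylated cells from fewer methylated copies in each cell.

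Coverage summed over the deposited CpGs was 16037172 to 29948088 in the 6 libraries, where a read counts once at each CpG it covers. The median coverage at the tested CpGs was 23 to 34 reads. Naive B cells 2 and 3 stood apart at unmethylated sites. At the 101451 CpGs that averaged less than 5% over the 6 libraries, 0.824% of cytosines read as methylated in naive B cell 1, 3.42% and 2.87% in naive B cells 2 and 3, and 1.16% to 1.26% in the plasma cells. Counts of calls and the promoter mean are therefore given with naive B cell 1 as the only naive library as well. That arm then has 1 library, its spread is taken from the plasma cells, and a call can be lost through the missing replicates alone. The start sites of Cd79b and Pax5, which mark B cells, were at 2.37% and 1.35% in naive (0.847% and 0% in naive B cell 1) and 0.643% and 0.774% in plasma cells, and those of Xbp1 and Sdc1 at 2.07% and 0.910% (0% and 0.943% in naive B cell 1) and then 0.644% and 1.41%. Start sites of other lineages were covered for few markers: Lck and Thy1 of T cells were at 12.2% and 21.5% in naive and 8.99% and 18.1% in plasma cells, and Mpo of myeloid cells was at 37.6% and 25.3%.

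Plasma cells had lost methylation across the genome, and the loss was partial at most sites. The mean level over all tested CpGs was 59.3%, 61.6% and 61.4% in naive B cells 1 to 3 and 50.3%, 47.6% and 47.1% in plasma cells 1 to 3. The groups did not overlap, and plasma cell 1 kept the most. The difference was -12.4 points (60.8% ± 1.26 against 48.4% ± 1.73, SD, n = 3 libraries each; exact two-sided permutation p = 0.1, the smallest that 3 against 3 libraries allow). The share of CpGs at 90% or more was 45.8% to 49.0% in the naive libraries and 11.8% to 15.9% in the plasma cell libraries. The share between 20% and 90% went the other way, from 19.2% to 21.2% up to 49.7% to 52.4%. CpGs at 20% or less made up 31.8% to 33.1% and 34.4% to 35.9%. Of the CpGs at 90% or more on average in naive B cells, 78.1% lay between 20% and 90% in plasma cells, 21.7% stayed at 90% or more, and 427 (0.221%) ended at 20% or less.

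**Figure D1:**
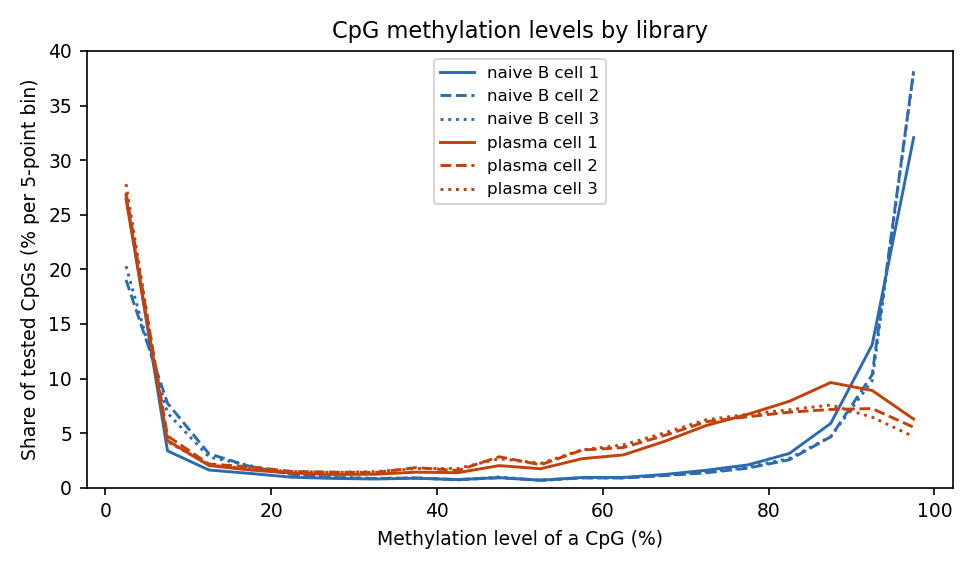
Share of the tested CpGs in each 5-point bin of methylation level (y axis, percent of CpGs) against the level (x axis, percent), with 1 line per library. The 3 plasma cell lines lack most of the naive peak at 90% or more and lie above the naive lines from 20% to 90%. From 5% to 20% they lie above naive B cell 1 and below naive B cells 2 and 3.

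A CpG was called at a Benjamini-Hochberg adjusted p under 0.01 in a quasi-binomial model of its read counts and a difference of at least 20 points between group means. Of all tested CpGs, 83272 were lower in plasma cells (20.9%) and 125 were higher (0.0313%). These calls rest on a dispersion shared across CpGs, whose prior was fitted on a subset chosen after a prior from all CpGs left none called. With each CpG's own dispersion in the quasi-binomial model 0 were called, and 144565 lower and 356 higher had an unadjusted p under 0.05. The libraries of the groups did not overlap at 81755 of the lower and 117 of the higher CpGs. Over all tested CpGs, called or not, the 3 plasma cell libraries lay below the 3 naive libraries at 47.4%. The CpGs called lower averaged 89.8% ± 1.11 in naive and 57.9% ± 3.99 in plasma cells, with a median difference of -29.1 points. Of them, 53.9% lost between 20 and 30 points, and 347 lost 80 points or more. Of the 71558 that started at 80% or more, 900 (1.26%) ended at 20% or less. With naive B cell 1 as the only naive library, 27785 CpGs were lower and 44 higher.

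The loss followed the level a site started from. CpGs were grouped by naive B cell 1 alone and the difference was taken from naive B cells 2 and 3, so that the library which sets a bin is not in its difference. Sites over 60% to 80% in naive B cell 1 lost most, 25.2 points below the 77.4% of the other naive libraries. Sites over 80% to 90% fell by 23.9 points, those over 90% but under 100% by 17.6 points and those at 100% by 14.7 points. As a share of the level, these losses were 32.5%, 26.4%, 18.2% and 15.0%. Sites over 20% to 40% and over 40% to 60% lost 36.1% and 35.4% of theirs.

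By annotation class, exons and promoters moved less than introns and the space between genes. Promoter CpGs, most of them unmethylated, went from 20.9% ± 1.56 to 15.5% ± 0.714, exonic CpGs from 49.8% to 41.8%, intronic CpGs from 68.2% to 54.2% and intergenic CpGs from 77.7% to 61.3% (exact permutation p = 0.1 for each class, n = 3 libraries each). The share of CpGs called lower was 6.80%, 10.2%, 23.9% and 29.7%. With naive B cell 1 alone the promoter difference was -3.55 points in place of -5.33, and weighted by reads it was -9.01 points and the exon difference -15.1 in place of -8.02. Among the 182472 CpGs at 90% or more in naive B cell 1, where the starting level is the same, promoters fell by 16.6 points, introns by 16.8 points and intergenic CpGs by 17.7 points, while exons fell by 12.7 points. Such sites within 1 kb of a start site fell by 15.6 points and those over 100 kb away by 17.3 points.

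**Figure D2:**
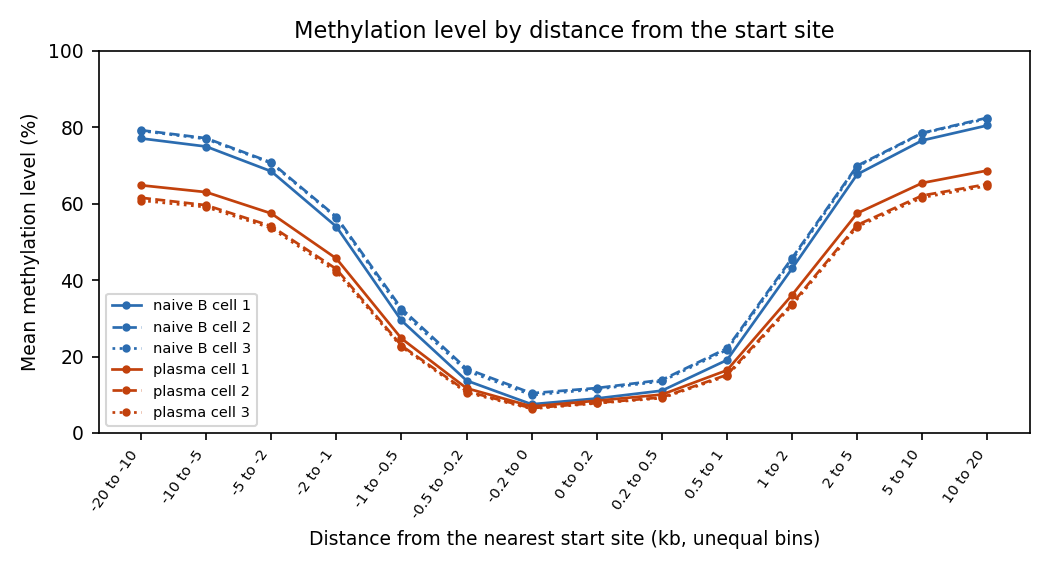
Mean methylation level (y axis, percent) of tested CpGs in bins of distance from the nearest start site (x axis, kb, bins of unequal width), with 1 line per library. The plasma cell lines lie below the naive lines in every bin, by 2.69 points in the 200 bp before the start site and by 16.1 points at 10 to 20 kb upstream; in the 200 bp before the start site naive B cell 1 is at 7.51%, the other naive libraries at 10.4% and 9.94% and the plasma cells at 6.33% to 6.97%.

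Sites with few CpGs nearby lost more methylation than sites in dense groups. Density was counted as the number of deposited CpGs within 100 bp on either side, the site itself included, and only CpGs at 90% or more in naive B cell 1 were compared. Sites with no listed neighbour (51639 CpGs) stood at 96.6%, 96.8% and 96.8% in the naive libraries and at 79.6%, 74.6% and 73.8% in the plasma cell libraries, a fall of 20.7 points. Sites in groups of 2 to 3 fell by 16.2 points and those in groups of 4 to 6 by 11.6 points. In groups of 7 to 10 (3086 CpGs) the naive libraries were at 97.2% to 97.3% and the plasma cell libraries at 89.8%, 87.6% and 87.6%, a fall of 8.88 points. In groups of 11 to 15 (137 CpGs) the fall was 6.56 points, and the 4 CpGs in larger groups fell by 9.3 points. The share called lower went from 44.6% through 27.5%, 13.3% and 7.55% to 5.84%. Every plasma cell library followed this order from groups of 1 to groups of 11 to 15, and plasma cell 1 was the highest in each group. The median coverage was 34 reads in naive and 27 reads in plasma cell libraries for lone sites and 29 and 24 reads for groups of 7 to 10. The order also held within one annotation class: exonic sites fell by 17.2, 13.6, 10.4 and 8.41 points and intergenic sites by 21.9, 16.9, 11.8 and 9.37 points from lone sites to groups of 7 to 10. Density was counted on deposited CpGs, so CpGs outside the table are not in it.

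**Figure D3:**
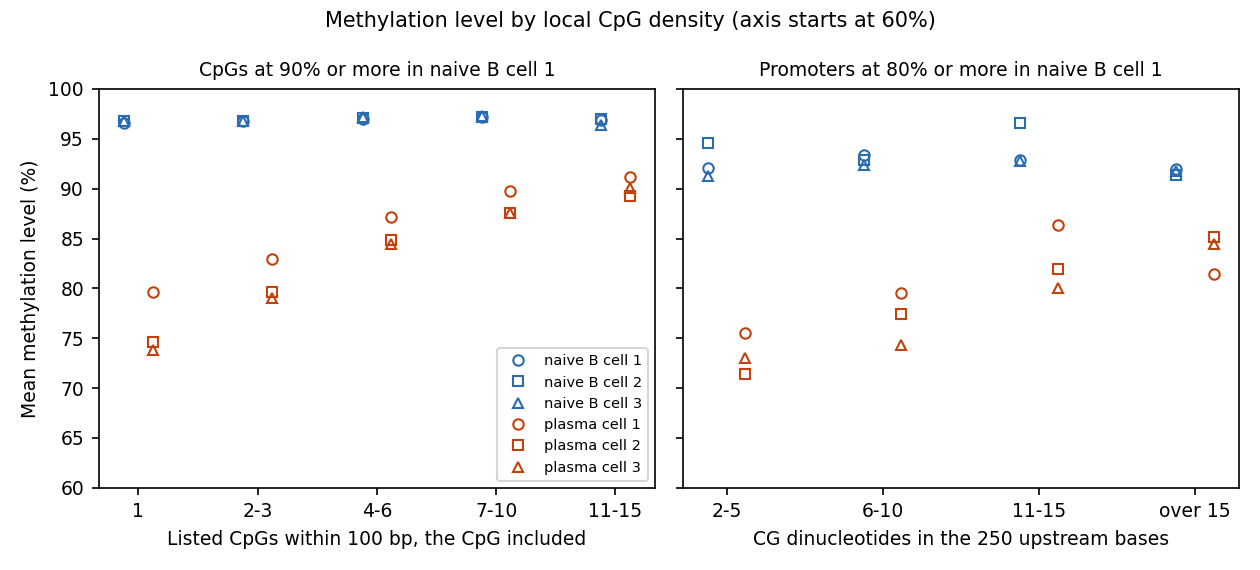
Mean methylation level (y axis, percent, starting at 60) in each library. Left, CpGs at 90% or more in naive B cell 1 by the number of deposited CpGs within 100 bp; right, promoters with a mean of 80% or more in naive B cell 1 by the number of CG dinucleotides in their 250 upstream bases. Naive libraries stay over 90% throughout, while plasma cell libraries rise from 73.8% to 79.6% at lone CpGs to 89.3% to 91.2% in groups of 11 to 15.

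The count of CG dinucleotides in the RefSeq promoter sequences (build GRCm38.p6, the 250 bases before the start site; CG reads the same on both strands) gave a second measure of density that does not depend on coverage. Tested CpGs were set on these sequences by their annotated distance to the start site, and 65.2% of them on plus-strand genes and 66.7% on minus-strand genes fell on a CG. The 1520 promoters with at least 2 tested CpGs, all of them on a CG, were kept. Of all 22862 promoters in the table, 91.1% hold at least 1 CG and the median is 5. Among promoters at 80% or more in naive B cell 1, the 27 with 2 to 5 CG fell by 19.3 points, the 26 with 6 to 10 by 15.8 points, the 6 with 11 to 15 by 11.3 points and the 5 with over 15 by 8.03 points. The last 2 groups are small, and plasma cell 1 was lower in the last (81.5%) than in the one before it (86.3%).

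Printed here are 5 promoters, chosen after their values were seen. They run from CpG-poor promoters that lost methylation to a CpG-dense pair that kept it. Each is the 250 bases before the start site, 5′ to 3′ on the gene's strand, with the CG of each tested CpG in capitals. They are Slfn2 (chr11:83064862-83065111, plus strand), a Schlafen family gene of lymphocytes; Ccl22 (chr8:94745434-94745683, plus strand), a chemokine that draws Ccr4-bearing T cells; Epor (chr9:21963577-21963826, minus strand), the erythropoietin receptor; Slc25a31 (chr3:40708621-40708870, plus strand), the testis ADP/ATP carrier; and Sycp1 (chr3:102936101-102936350, minus strand), a protein of the meiotic synaptonemal complex.
Slfn2: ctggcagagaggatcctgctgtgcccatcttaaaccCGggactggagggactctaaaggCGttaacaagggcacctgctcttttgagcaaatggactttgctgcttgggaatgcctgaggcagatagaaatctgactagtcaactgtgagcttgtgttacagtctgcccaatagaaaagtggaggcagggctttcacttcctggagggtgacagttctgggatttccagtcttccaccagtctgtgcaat
Ccl22: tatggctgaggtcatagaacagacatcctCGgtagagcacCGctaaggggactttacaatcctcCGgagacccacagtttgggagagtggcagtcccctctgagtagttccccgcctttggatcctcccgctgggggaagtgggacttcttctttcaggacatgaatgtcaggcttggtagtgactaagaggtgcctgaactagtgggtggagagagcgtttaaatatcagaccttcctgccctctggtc
Epor: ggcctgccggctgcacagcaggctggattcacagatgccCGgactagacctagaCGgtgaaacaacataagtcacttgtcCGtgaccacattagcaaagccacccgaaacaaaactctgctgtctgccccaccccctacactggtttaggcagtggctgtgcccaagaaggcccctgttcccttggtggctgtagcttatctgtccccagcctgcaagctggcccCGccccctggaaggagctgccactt
Slc25a31: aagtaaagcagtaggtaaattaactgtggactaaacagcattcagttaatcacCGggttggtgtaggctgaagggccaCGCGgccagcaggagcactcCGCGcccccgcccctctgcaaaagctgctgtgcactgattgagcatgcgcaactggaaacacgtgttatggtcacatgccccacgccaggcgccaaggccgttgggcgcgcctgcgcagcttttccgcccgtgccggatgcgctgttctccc
Sycp1: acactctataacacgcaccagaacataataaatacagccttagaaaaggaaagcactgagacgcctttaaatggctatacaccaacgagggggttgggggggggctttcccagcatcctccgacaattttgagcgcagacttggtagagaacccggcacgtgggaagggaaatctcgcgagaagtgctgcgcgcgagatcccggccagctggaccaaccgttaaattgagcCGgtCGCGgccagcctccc
The first of these sequences holds 2 CG, the next ones 6 and 6, and the germline pair 18 and 17. Promoters with 6 or fewer make up 54.6% of all promoters in the table, and those with 17 or more 23.2%. The 5 promoters were not matched for starting level: in naive B cell 1 Slfn2 was at 22.4% and Epor at 65.2%.

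In Slfn2 both CG of the window were tested. The one at -213 from the start site was at 31.0%, 37.3% and 35% in naive and at 1.75%, 1.85% and 2.22% in plasma cells (adjusted p from the quasi-binomial model 1.8e-08). The one at -190 was at 13.8%, 8.33% and 14.7% and then 3.57%, 0% and 2.04% and was not called (adjusted p from the same model 0.0288). In Ccl22 the CpG at -220 went from 77.6% ± 5.06 to 35.6% ± 10.1, the one at -209 from 85.4% to 50.3% and the one at -185 from 93.7% to 69.3%, all 3 called and with no overlap. In Epor the CpGs at -209 and -168 were called (65% to 28.4% and 74.0% to 34.6%), the CpG at -194 missed the threshold with an adjusted p of 0.0204, and the CpG at -23 stood at 70.7% ± 3.47 and 62.3% ± 8.96 with overlapping libraries. In Slc25a31 the 5 tested CpGs averaged 96.4%, 96.3% and 96.7% in naive and 93.8%, 96.2% and 98.9% in plasma cells. In Sycp1 the 3 tested CpGs averaged 97.4%, 100% and 100% and then 98.1%, 91.7% and 100%. None of the CpGs of the germline pair was called, and the groups overlapped at each of them. The promoters with over 15 CG given above fell by a mean of 8.03 points, more than either gene of this pair.

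**Figure D4:**
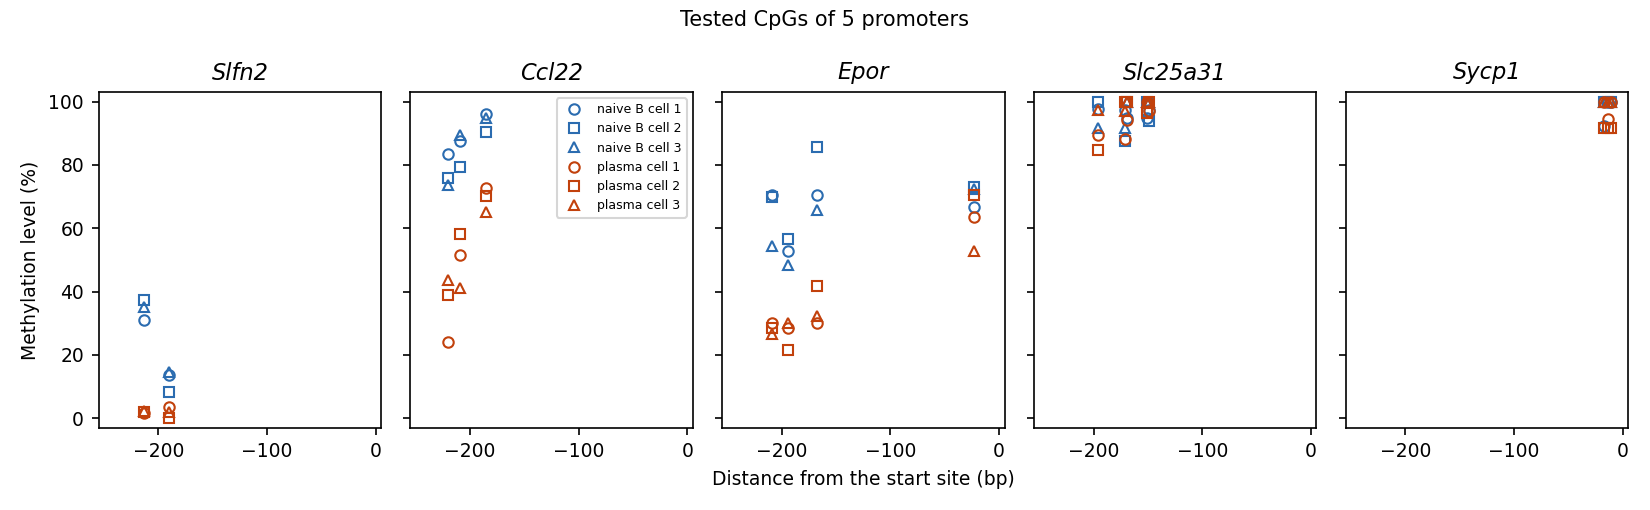
Methylation level (y axis, percent) of each tested CpG in the 250 bases before the start site (x axis, bp) of Slfn2, Ccl22, Epor, Slc25a31 and Sycp1, with 1 point per library. Plasma cell points lie below naive points in Slfn2, Ccl22 and the upstream CpGs of Epor and among them in Slc25a31 and Sycp1.

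A few single CpGs near start sites went from nearly full to nearly empty. A CpG 829 bp before a start site of Sec1 was at 100%, 95.8% and 100% in naive and at 0%, 6.67% and 3.03% in plasma cells, at 15 to 33 reads per library. A CpG in an intron of Rapgef1, a guanine nucleotide exchange factor, went from 96.0% ± 3.46 to 1.88% ± 1.63 and one in an intron of Unc93b1, which carries nucleic acid sensing Toll-like receptors to endosomes, from 96.8% to 4.17%. The T cell costimulatory ligand Cd80 lost a CpG 1208 bp after its start site, which was at 92.2%, 97.1% and 89.4% in naive and 2.17%, 2.27% and 2.70% in plasma cells at 44 to 74 reads. The other CpGs of this rank lay at Hnrnpl, Mcph1, Tnfaip8, Prrc2b, Creld2 and Zbtb20 and fell by 89.9 to 91.8 points. At all 10 the groups did not overlap, as at 98.2% of all CpGs called lower. The 10 were chosen for the size of their fall.

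Few of the lower CpGs lay in clusters of at least 5. How many tested CpGs had enough tested neighbours to form such a cluster was not counted, so the share has no base beside it. Joined at gaps of up to 500 bp, they made 729 clusters of at least 5, which held 4258 CpGs or 5.11% of those called lower. With a gap of 200 bp there were 348, and at 20 reads 131. The cluster with most lower CpGs, 17 of 17 tested over 296 bp, lay in an exon of Snx20, a sorting nexin that binds PSGL-1 (chr8:91151119-91151414, build mm9). It was at 74.1%, 91.4% and 87.5% in naive and 28.9%, 16.9% and 16.1% in plasma cells. At the estrogen receptor gene Esr1, 16 of 28 CpGs across the start site were lower (45.8% to 20.0%). All 12 tested CpGs were lower in a cluster 481 to 874 bp after the start site of Cnp, which encodes a cyclic nucleotide phosphodiesterase best known from myelin (87.2% ± 2.53 to 20.5% ± 8.23), and in an intronic cluster of Nfatc1, a transcription factor of antigen receptor signalling (94.3% to 34.4%). An intronic cluster of Heg1 fell from 73.6% to 24.6% and one of Prdm16 from 93.4% to 63.8%. Among the first 8 clusters, chr14:54853803-54854323 and chr12:113577430-113578171, both intergenic and with no gene symbol in the table, fell from 78.6% to 24.2% and from 89.5% to 37.3%.

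Gene loci were compared as the unweighted mean level of the CpGs that the table assigns to a gene by its nearest start site, where at least 5 were tested, and called in limma at an adjusted p under 0.01 and 5 points. Of 14871 loci, 11965 were lower (80.5%) and 5 were higher (0.0336%), with a median difference of -11.7 points. A lower locus was therefore the usual case. Loci at 20% or more in naive B cells lost a median 19.9% of their level, 167 loci lost at least 30 points and 35 at least 40 points. With naive B cell 1 as the only naive library the median difference over all loci was -10.2 points. The 11965 loci kept their sign, but they were chosen for a fall in data that include these libraries, so little follows from it.

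The loci of at least 10 CpGs with the largest called losses held several lymphocyte genes. Rab30, a small GTPase of the Golgi, was at 89.6%, 91.7% and 90% in naive and 26.8%, 21.7% and 18.7% in plasma cells, the largest fall of all loci (-68.0 points, SE 2.11, adjusted p = 1.05e-09), with 10 of 10 CpGs lower. Pou2f2, the B cell octamer factor Oct-2, went from 89.3%, 95.1% and 93.7% to 38.1%, 38.3% and 39.7%, with 12 of 13 CpGs lower. Il10, an anti-inflammatory cytokine that plasma cells can secrete, went from 65.4%, 66.2% and 71.5% to 17.3%, 15.1% and 14.4% (-52.1 points, SE 1.84, adjusted p = 1.37e-09). In each of these genes every plasma cell library lay below every naive library, which was a condition for being named in this group. Unc119, a lipid-binding trafficking protein, fell from 85.4% ± 4.01 to 20.7% ± 7.04 over 10 CpGs that form 1 cluster. Zbtb32, a zinc finger repressor, fell from 83.1% to 35.7% and Il21, a cytokine of helper T cells, from 82.8% to 37.7%. Gpnmb, Cnp and Trim72 lost 44.7 to 51.4 points.

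Genes of the plasma cell program lost methylation at 19 of 22 tested loci (median -16.8 points, against 80.5% and -11.7 over all genes), and 1 was higher. Irf4, which starts the program, was at 32.4%, 41.2% and 37.3% in naive and 5.89%, 2.02% and 1.98% in plasma cells, a loss of 91.1% of its level over 6 CpGs between -26430 and 1616 bp from the start site. Tnfrsf13b, the receptor TACI for the survival factors BAFF and APRIL, fell from 85.1% ± 1.32 to 52.8% ± 1.84 and the signalling adaptor Lax1 from 90.8% to 56.7%. Prdm1 fell from 66.5%, 68.0% and 68.1% to 51%, 45.8% and 43.7%, with 17 of its 49 CpGs lower. Sdc1, which encodes CD138, the antigen the cells were sorted on, fell from 65.4% to 44.9%. Xbp1 fell from 42.0% ± 1.13 to 30.2% ± 1.23 and Creb3l2 from 81.6% to 72.4%. At 20 reads neither was called (-2.20 points, adjusted p = 0.124 for Xbp1 and -4.04 points, adjusted p = 0.0530 for Creb3l2, in limma). The elongation factor Ell2 was unmethylated in both groups (2.81% and 0.899%). Cd93, needed for plasma cells to persist in bone marrow, was called higher, from 24.0% ± 2.32 to 29.4% ± 1.82, but not without naive B cell 1 (adjusted p = 0.0178 in limma), plasma cell 2 (adjusted p = 0.0234 in limma) or plasma cell 3 (adjusted p = 0.0127 in limma). On summed reads the direction of Cd93 turned, to -3.56 points (adjusted p = 0.473 in the quasi-binomial model).

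Genes of mature B cell identity lost methylation at 29 of 33 tested loci with a median of -15.6 points, against 80.5% of all loci. The adaptor Blnk of the B cell receptor went from 67.7%, 67.8% and 63.6% to 28.0%, 24.7% and 22.0%. Tnfrsf13c, the BAFF receptor, fell from 69.9% to 29.0% and Swap70 from 91.6% to 51.4%. The factors that hold the B cell program were lower too. Pax5 went from 62.6%, 65.5% and 64.9% to 47.6%, 46.9% and 45.3% over 104 CpGs, of which 36 were lower, Ebf1 from 64.9% to 46.5%, Bach2 from 64.5% to 49.1% and Bcl6 from 45.8% to 36.0%. Cd79b, Cd22, Ciita and Irf8 fell by 12.5 to 22.2 points. The lymph node homing receptor Ccr7 was not called (54.7% ± 2.41 and 50.6% ± 4.04, overlapping libraries, adjusted p = 0.0850 in limma). With naive B cell 1 alone, Bcl6 (-8.96 points, adjusted p = 0.0107 in limma) and Cd22 (-11.2 points, adjusted p = 0.0235 in limma) were not called.

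**Figure D5:**
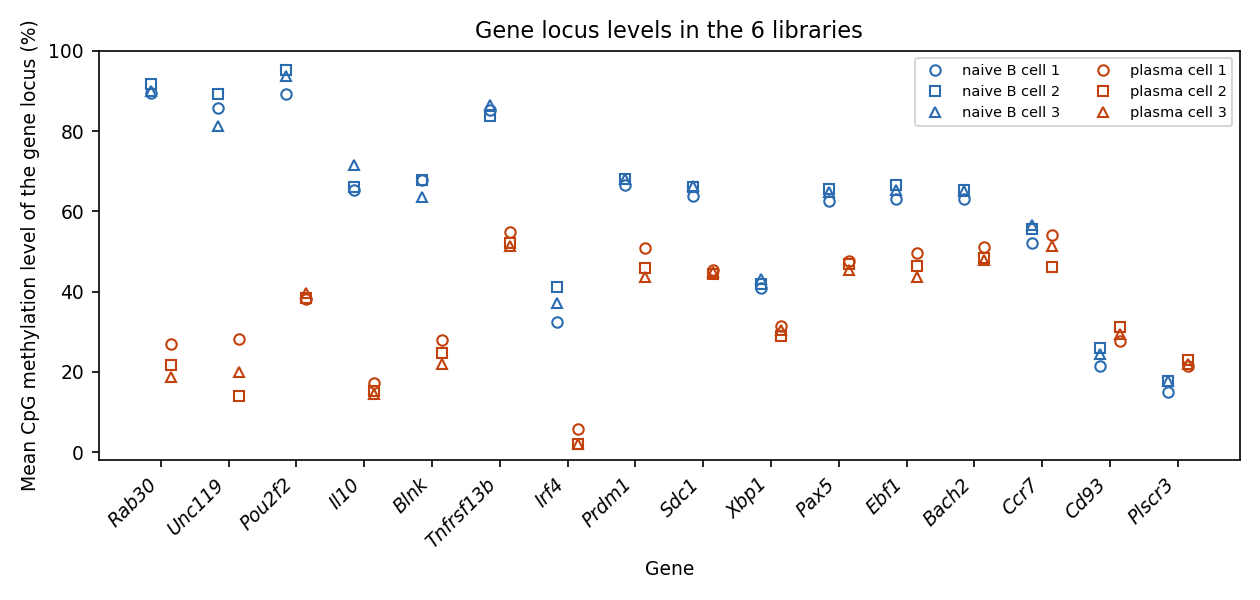
Mean CpG methylation level of 16 gene loci (y axis, percent) in each library, naive B cells on the left and plasma cells on the right of each gene. Plasma cell points lie below naive points at the 13 genes from Rab30 to Bach2, among them at Ccr7 and above them at Cd93 and Plscr3; on summed reads Cd93 turned to -3.56 points.

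Each count in the lists that follow stands beside the 80.5% of all loci that were lower, and nothing is read from it about the list. Among genes of the TLR4 and NF-kB response 27 of 29 loci were lower, led after Il10 by the NF-kB inhibitor Nfkbie, from 39.8%, 47.6% and 39.2% to 1.28%, 3.04% and 1.82%, and by Ly86, the partner of the LPS receptor relative RP105, from 92.8% to 56.7%. Of B cell receptor and coreceptor genes 24 of 25 were lower, of cytokines and their receptors 30 of 32, and of class switching and germinal centre genes 11 of 13. In the last list the costimulatory ligands Cd80 and Cd86 fell by 39.0 and 33.2 points. Homing and adhesion receptors were lower at 15 of 21 loci, led by Cd44 (76.6% to 39.1%), with Cxcr4, a chemokine receptor for bone marrow homing, at 79.9% and 62.1%. Genes of protein folding and secretion were lower at 30 of 43 loci with a median of -9.89 points; Spcs2, a signal peptidase subunit, fell from 27.3% ± 6.48 to 5.61% ± 2.85, while the chaperone Hspa5 stood at 24.1% ± 0.571 and 25.4% ± 0.402 and was not called (adjusted p = 0.294 in limma). Cell cycle genes were lower at 23 of 35 loci (median -7.38), Bcl2 family genes at 11 of 15, chromatin regulators at 29 of 41 and genes of transport, glycosylation and metabolism at 33 of 38.

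Genes of other lineages, read against the same 80.5%, were lower as well. All 19 tested T cell markers were lower (median -15.9 points), as were all 12 myeloid markers (median -16.2 points), 6 of 7 NK cell markers and 14 of 17 erythroid and stem cell markers. Cd3e, a subunit of the T cell receptor complex, fell from 88.9% ± 2.66 to 66.5% ± 2.17 and Cd8a from 97.2% to 80.1%. The 74 tested loci of Polycomb developmental genes, which started at a median of 21.4%, were lower at 45 with a median of -6.11 points; Hoxb3, which started at 97.3%, fell by 30.1 points. The lists were not tested against each other.

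Start sites moved less than whole loci. Within 1000 bp of a start site, 963 of 7954 windows were lower (12.1%) and 1 was higher (0.0126%), with a median difference of -1.85 points. Of the 1621 windows at 20% or more in naive B cells 788 were lower, and of the 6333 under 20% 175 were lower. The median of these low windows was 2.86% in naive B cells, within the range of the library background above. After each library's background was subtracted 508 windows were lower, and without naive B cell 2 there were 416. With naive B cell 1 as the only naive library the median over all windows was 0.0621 points. The 963 windows kept their sign, but they were chosen for a fall in data that include these libraries, so little follows from it. The windows with the largest losses were far from the range of the library background. Cnp led with the cluster given above, followed by Lrmp, an endoplasmic reticulum membrane protein of lymphocytes (89.1%, 94.4% and 93.9% to 30.5%, 31.6% and 28.2%), and Slc37a4, the glucose 6-phosphate transporter of the endoplasmic reticulum (81.2% to 24.0%). Arid3b fell from 73.6% to 20.7%, Trim72 from 75.3% to 22.6%, Sephs2 from 59.2% to 12.8% and Pstpip2 from 66.3% to 20.2%.

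Several windows joined alternative start sites that started from different levels or lost different amounts. At Irak2, a kinase of Toll-like receptor signalling, the CpGs at a start site near 113619772 on chromosome 6 (mm9) went from 56.7%, 58.6% and 61.2% to 5.73%, 6.47% and 6.52%, while those at the start site near 113588461 went from 6.25%, 13.3% and 9.13% to 0%, 1.47% and 0.641%, with 1 of 4 CpGs called lower. At Traf1, a TNF receptor adaptor, 1 start site fell from 62.8% ± 3.46 to 12.2% ± 2.72 and the other stood at 3.58% and 0.882%. At Dock8, 1 start site with 3 CpGs fell from 98.6% to 17.9% and the other stood at 8.02% and 6.80%. The window of Sec1, which went from 91.3% to 43.9%, rested on 1 start site (90.1% to 35.4%), while a single CpG at its other start site was at 98.7% and 95.1%. Among secretion genes Derl3, which helps export misfolded proteins, fell from 10.7%, 16.6% and 21.4% to 1.89%, 2.30% and 0.779%.

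Imprinted genes and many germline genes are known to carry promoter methylation in body cells. Of 16 imprinted windows 7 were lower, against 12.1% of all windows and 48.6% of those at 20% or more in naive B cells, and all 8 that stood between 35% and 65% in naive B cells had a lower mean in plasma cells, by 7.32 to 22.6 points, with 5 of them called. Igf2r went from 59.0%, 48% and 54.5% to 44.1%, 22.1% and 27.4%. Plagl1 went from 59.2% ± 3.19 to 37.8% ± 8.86, with 47.9% in plasma cell 1 and 31.8% and 33.5% in the others; without naive B cell 2 its adjusted p in limma was 0.0104. Meg3 fell from 61.4% to 41.9% and Peg13 from 53.3% to 37.4%. Of 14 germline windows 7 were lower, near that 48.6%, with a median difference of -9.85 points over all 14. They kept most of their level: Tex101 was at 94.3% ± 2.17 and 81.6% ± 2.36, Mov10l1 at 96.1% and 82.1%, and Mael at 96.2% and 85.5%. The window of Sycp1 was not called (93.7% and 86.6%, adjusted p = 0.0439 in limma).

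The genes that write, read and erase the mark were lower at 22 of 26 loci, against 80.5% of all loci. Tet2 fell most, from 77.2% ± 1.60 to 51.5% ± 2.24. Dnmt1 fell from 93.7% to 80.6%, Tet3 from 89.0% to 73.5%, Tet1 from 49.3% to 36.9%, Dnmt3a from 61.2% to 50.2% and Dnmt3b from 48.5% to 41.0%. Dnmt1, Dnmt3a and Dnmt3b with naive B cell 1 alone were at -11.8, -10.4 and -5.41 points and were not called (adjusted p = 0.0139, 0.0174 and 0.103 in limma). The window of Uhrf1 joined a pair of start sites. The 2 CpGs at the start site near 56442760 on chromosome 17 (mm9) went from 47.2%, 63.4% and 56.6% to 16.8%, 12.8% and 11.1%, both called lower, while the 12 CpGs at the other stood at 2.07% and 0.854%. The mean over the window (9.74% to 2.67%) was not called without naive B cell 2 (adjusted p = 0.0437 in limma), plasma cell 2 (adjusted p = 0.0112 in limma) or plasma cell 3 (adjusted p = 0.0147 in limma).

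Gains were few and short. The 125 higher CpGs had a median of 16.0% in naive and 46.0% in plasma cells, and 9 lay in promoters, 32 in exons, 50 in introns and 34 between genes. Of these, 119 had at least 10 reads in every plasmablast library too, and all 119 had a plasmablast mean above the naive mean. They were chosen against the same naive libraries, so this is a description. At Egr3, a transcription factor induced by antigen receptor signals, 5 CpGs 985 to 1171 bp after the start site rose; the one at 1019 bp went from 21.3%, 17.7% and 17.7% to 50.0%, 44.0% and 58.6%. At the same time 18 of the 65 CpGs of the Egr3 locus were lower. At Plscr3, a phospholipid scramblase family gene, 4 exonic CpGs rose and none fell, and the one 4449 bp after the start site went from 22.4%, 10.4% and 20.0% to 65.5%, 71.4% and 72.1%. The Plscr3 locus as a whole rose from 16.8% ± 1.55 to 22.2% ± 0.701, but fell under 5 points without naive B cell 1 (4.46 points) or plasma cell 2 (4.97 points), and was not called at a coverage of 5 (3.26 points, adjusted p = 0.0384 in limma) or on summed reads (4.24 points, adjusted p = 0.136 in the quasi-binomial model). At Cd93, 3 exonic CpGs 1777 to 1986 bp after the start site rose from between 6.81% and 13.3% to between 38.2% and 53.5%. Hif3a gained at 4 CpGs and lost at 3, and its locus stood at 48.8% ± 3.36 and 50.7% ± 4.40. Pip4k2b and Anks1 had 3 higher CpGs each, against 7 and 6 lower ones; the small fall of the Anks1 locus (-5.72 points) was not called in 5 of the 6 fits that leave out 1 library. The only window called higher was that of Tpcn1, an endolysosomal channel (36.5% ± 4.84 to 48.3% ± 4.83), and it was not called without naive B cell 1, 2 or 3 or plasma cell 1 (adjusted p = 0.0401, 0.0156, 0.0509 and 0.0146 in limma).

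At the CpGs called lower, plasmablasts lay between the groups that were compared. Over the 77003 of them with at least 10 reads in all 9 libraries, the mean was 88.6%, 90.5% and 90.5% in naive B cells, 68.4%, 70.5% and 69.8% in plasmablasts and 62.8%, 56.1% and 55.8% in plasma cells. The CpGs were chosen for the difference between the outer groups, so this order is a description. The authors' deposited table of CpGs that differ between naive B cells and plasma cells lists 96854, of which 58962 were tested here. Of these 58755 were called lower and 60 higher, and 147 were not called. The shared CpGs are 70.5% of the calls made here and 60.7% of the authors' deposited table.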

How the data were processed

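Reduced representation bisulfite sequencing was done on 3 libraries each of naive B cells, plasmablasts and plasma cells. Per the submitters' processing notes, reads were aligned with Bismark and Bowtie2 to build mm9. Their versions were not stated in the material used. The authors deposited whole-number read counts of methylated and unmethylated cytosines per CpG and library, with the nearest gene, its start site distance and the class of each CpG. The authors also deposited a list of CpGs that differ between cell types, whose columns of fractions and p-values were not recomputed. Adaptors of more than one kind were used, and which library had which is not given.

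Levels were computed as methylated reads over all reads. A quasi-binomial model was fitted at every CpG, with its dispersion moderated by limma 3.58.1 in R 4.3.3 (data.table, version 1.17.8). The prior (1.38, with 56.9 degrees of freedom) was fitted on 59458 CpGs with fitted counts of at least 3, a subset chosen after seeing that a prior fitted on all CpGs left none called. Loci and windows were tested with limma on mean levels, and p-values were adjusted by Benjamini-Hochberg over all CpGs, loci or windows. The scripts were tested on simulated data. No label ties libraries to animals, so p-values measure the spread between libraries, which may be technical.

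The genes named were the leading loci, windows, clusters and gains by size of change, the leading members of each gene list and a fixed set of B cell and plasma cell regulators. Members and lists were chosen with earlier results of these data known. A few genes that the rule names are not reported here. Other genes, alternative start sites and printed promoters were chosen after their values were seen. Alternatives covered coverage, dispersion, weighting, background, window, gap, the replicate block and leaving out each library.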

Additional observations from a re-analysis of the deposited data

How the results depend on the processing

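The CpG calls depend on the dispersion. At 20 reads 32088 of 144535 tested CpGs were lower and 51 higher, all among the calls at 10 reads; fewer CpGs were tested. With naive B cell 1 as the only naive library, an arm of 1, 27785 were lower and 44 higher, and at 30 points 38388 and 54. With each CpG's own dispersion in the quasi-binomial model 0 were called in either direction, while 144565 lower and 356 higher had an unadjusted p under 0.05. Fisher's exact test on pooled reads called 191 higher. Leaving out 1 library gave 62778 to 90067 lower and 91 to 105 higher. There were 348 clusters with a 200 bp gap and 131 at 20 reads.

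Weighting by reads changed the mean difference to -18.7 points for all CpGs, -9.01 in promoters, -15.1 in exons, -19.9 in introns and -19.8 between genes, and naive B cell 1 alone gave -3.55 in promoters.

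For loci, 6717 of 9014 were lower and 3 higher at 20 reads and 5924 were lower with naive B cell 1 alone. Quasi-binomial tests on summed reads called 0 loci higher (0 at an unadjusted p under 0.05) and put Cd93 at -3.56 points. Leaving out 1 library gave 11049 to 12166 lower and 0 to 6 higher loci. For windows, 421 of 3569 were lower at 20 reads, 2 with naive B cell 1 alone, 513 on summed reads, 508 after background subtraction and 493 within 500 bp. The last 4 settings called 0 higher (110, 0, 165 and 12 at an unadjusted p under 0.05), and a coverage of 5 called 3. Leaving out 1 library gave 416 to 1145 lower and 0 to 4 higher windows.

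Replicate numbers did not pair the libraries: deviations of same-numbered libraries correlated at 0.0037, -0.0044 and -0.0041. With the replicate number as a block, 72759 CpGs were lower, 11698 loci lower and 8 higher, and 903 windows lower and 2 higher. Of 123 named loci and windows that were called, 87 kept every call, 116 kept it without any 1 library 122 kept it under the block and 93 kept it with naive B cell 1 alone, and 1 (Cd93) reversed.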

Other observations

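Differences at neighbouring CpGs were alike over short distances. Across pairs of consecutive tested CpGs, the differences between plasma cells and naive B cells correlated at r = 0.681 up to 10 bp (22872 pairs), 0.525 at 11 to 50 bp and 0.122 beyond 1000 bp (119081 pairs). CpGs a short distance apart can share reads, so this is a description with no test.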
